A study of Mus musculus with 18 samples.

Results

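The actin isoforms are the 6 closely related proteins that mammals make from separate genes, and all 6 genes were taken here: Acta1 (skeletal alpha), Actc1 (cardiac alpha), Acta2 (smooth muscle alpha), Actg2 (smooth muscle gamma), Actb (cytoplasmic beta) and Actg1 (cytoplasmic gamma). The rule takes them by gene name, and they are 6 of the 28563 genes with a transcript in the tables. All 6 passed the filter on low counts, which left 16607 genes in the tests.

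Actin monomers join into filaments. In heart muscle the striated forms build the thin filament of the sarcomere, along which myosin pulls, while the cytoplasmic forms make up the cell cortex and the adhesions of every cell. The early heart is known to switch on smooth muscle and skeletal actin together with the cardiac form, and later to rely mostly on the cardiac form. Serum response factor, encoded by Srf, binds the CArG box, a run of A and T letters between CC and GG, in front of many muscle actin genes.

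The study sequenced polyA RNA from mouse heart ventricles at E14.5, before birth, in 18 libraries. Irx3 and Irx4 encode Iroquois homeodomain transcription factors of the heart. The labels give 3 wild-type libraries (WT 1, 2 and 3), 3 labelled Irx3KO (1, 2 and 4), 3 labelled Irx4KO (2, 3 and 4), 3 labelled Irx3het_Irx4het (double heterozygotes, here dHet 2, 3 and 4) and 6 labelled Irx3KO_Irx4KO (double knockouts, here DKO 2, 3, 4, 5, 7 and 10). No label names the strain, how the alleles were made or whether a library holds 1 embryo. The p-values below therefore measure the spread between libraries, and part of that may be technical.

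The libraries held 26721576 to 45946741 estimated counts. They formed 2 technically different sets. In WT 1 to 3 and DKO 5, 7 and 10 (set 1) Spearman's rho between a gene's relative level and its transcript length, over 11252 genes, ran from -0.586 to -0.343. In the other 12 libraries (set 2) it ran from 0.06 to 0.567. Genotypes were therefore compared within each set. Within set 2 rho was lowest in DKO 2 (0.062), DKO 4 (0.172) and DKO 3 (0.316), and 0.322 or more in all others. Comparisons and correlations that use the DKO of set 2 may thus carry part of this technical difference, which cannot be told apart from the label. WT stands only in set 1 and the single knockouts and double heterozygotes only in set 2. The DKO libraries of set 1 and set 2, which share a label, differed in 3119 genes (18.8% of those tested). Irx3 was low where its label says so: its mean level was 24.9 CPM (counts brought to the same total in each library) in WT and in Irx4KO, 13.1 CPM in dHet, 2.83 CPM in Irx3KO and 3.77 and 3.66 CPM in the DKO of set 1 and set 2. Irx4 was not low: its mean was 95.6 CPM in WT, 253 and 229.5 CPM in the DKO of the 2 sets, 224.7 CPM in Irx4KO, 185.2 CPM in dHet and 144.7 CPM in Irx3KO. No label names the deleted part of Irx4, so a gene-level count cannot check it, and every direction drawn below from an Irx4 label rests on the label alone. Bulk tissue was measured, so fewer cells of a type and less RNA per cell cannot be told apart.

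The 6 coding sequences are alike, and the counts of the 6 genes rest on where they differ. Their first 60 coding bases, read from the GENCODE M21 transcripts (GRCm38), are shown with capitals where a base differs from Actc1 at the aligned position.
Actc1: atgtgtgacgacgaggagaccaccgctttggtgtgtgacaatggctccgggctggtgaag
Acta1: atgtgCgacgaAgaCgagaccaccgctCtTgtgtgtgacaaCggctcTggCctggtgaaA
Acta2: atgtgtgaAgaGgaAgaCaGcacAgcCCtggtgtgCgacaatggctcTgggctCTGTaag
Actg2: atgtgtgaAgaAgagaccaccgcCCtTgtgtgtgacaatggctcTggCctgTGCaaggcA
Actb: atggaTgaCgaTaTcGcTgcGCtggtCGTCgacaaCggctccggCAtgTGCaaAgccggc
Actg1: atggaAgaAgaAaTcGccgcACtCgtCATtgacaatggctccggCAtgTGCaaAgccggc
Acta1 differs from Actc1 at 9 of these bases, Actg2 at 11, Acta2 at 14, Actg1 at 17 and Actb at 19. The cytoplasmic forms thus stand apart from the muscle forms at the start of the protein, the stretch in which actins differ most. Over whole coding sequences the cytoplasmic pair was most alike (88.7% identical bases), followed by Acta1 with Actc1 (86.2%). The lowest identity was 81.9%, for Actg1 with Actc1 and with Acta2.

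These differences bear on how firmly each form can be counted. Of all stretches of 31 bases in the main transcript, 4.2% of Acta1, 0.8% of Actc1, 1.4% of Acta2 and 0.8% of Actg2 also occur in a transcript of another gene, so the 4 muscle forms are nearly unique at that length. For Actb the share was 33.4%, mostly shared with Lrrc58 (22.7%), and for Actg1 57.1%, mostly shared with the copies Gm12715 (53.59%) and Gm8399 (42.98%). Counts of Actb and Actg1 are therefore uncertain where reads were split with such genes. The genes with shared sequence named here were low: Gm8399 ran from 0.158 to 19.4 TPM (a level scaled for transcript length and library total), Lrrc58, a gene of its own, had a median of 24.5 TPM, and Gm12715 did not pass 0.515 TPM. These levels rest on the same split of reads, so they cannot show how many reads Actb and Actg1 lost. In all, 27 other genes share such stretches with Actb and 16 with Actg1, and only some were looked up. One transcript carried nearly all counts of Acta1, Acta2 and Actc1 in every library (99.91% or more). It carried 86.22% to 92.69% of Actb and 91.64% to 95.42% of Actg1.

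The promoters of both striated forms, 250 bases before to 50 after the start (RefSeq, GRCm38.p6, minus strand), each hold a CArG box, in capitals. They are shown because Acta1 and Actc1 were the muscle forms whose levels went together across libraries.
Acta1, chr8:123894726-123895025: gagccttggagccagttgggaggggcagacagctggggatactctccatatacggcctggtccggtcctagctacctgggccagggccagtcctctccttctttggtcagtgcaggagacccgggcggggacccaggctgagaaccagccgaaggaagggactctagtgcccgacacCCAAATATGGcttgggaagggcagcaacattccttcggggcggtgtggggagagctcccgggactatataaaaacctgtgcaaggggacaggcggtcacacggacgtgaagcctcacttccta
Actc1, chr2:114052826-114053125: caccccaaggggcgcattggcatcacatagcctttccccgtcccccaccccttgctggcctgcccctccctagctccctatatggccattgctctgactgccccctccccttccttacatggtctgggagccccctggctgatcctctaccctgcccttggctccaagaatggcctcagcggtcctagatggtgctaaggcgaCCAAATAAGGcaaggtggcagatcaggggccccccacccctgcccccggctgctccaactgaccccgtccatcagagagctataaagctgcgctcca
The box lies 73 bases before the start in Acta1 (CCAAATATGG) and 47 before it in Actc1 (CCAAATAAGG). The Actg1 window holds CCATATATGG 90 bases before its start, and the Acta2 window holds no full match. Of all 32851 promoter windows of this length, 535 (1.63%) hold a CArG box, which reads the same way on both strands. A match describes letters, not binding. Promoters of Actb and Actg2 were not matched.

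Actc1 was by far the most abundant actin of the ventricle, and the order of the forms hardly varied. Over the 18 libraries the level was 8450 ± 687 TPM (SD) for Actc1, 933.8 ± 64.9 TPM for Actg1, 748.1 ± 59.6 TPM for Actb, 678.0 ± 138 TPM for Acta2, 134.0 ± 58.3 TPM for Acta1 and 6.357 ± 2.34 TPM for Actg2. Actc1 ranked first, Acta1 last but 1 and Actg2 last in all 18 libraries. Actg1 stood above Actb in 18 of 18, while Acta2 stood above Actb in 6 of 18 and above Actg1 in 1 of 18, so the order of Acta2 and Actb is not set apart by their spread. The 6 genes together took 0.829% to 1.17% of a library's counts.

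The summed actin level differed little between groups against its spread. It was 10320 ± 730 TPM in WT and 11350 ± 896 TPM in the DKO of set 1 (SD, n = 3 each). In set 2 it was 10630 ± 1190 TPM in DKO, 11350 ± 386 TPM in Irx3KO, 10760 ± 539 TPM in Irx4KO and 11290 ± 487 TPM in dHet. The forms differed far more in how much they varied within a group. The pooled coefficient of variation was 7.17% for Actb, 7.44% for Actg1 and 7.68% for Actc1, and 21.6% for Acta2, 27.0% for Acta1 and 36.2% for Actg2. Between the lowest and highest library Acta1 spanned 3.75-fold, Acta2 2.31-fold and Actg2 7.09-fold, against 1.29-fold to 1.36-fold for the other 3 forms.

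**Figure D1:**
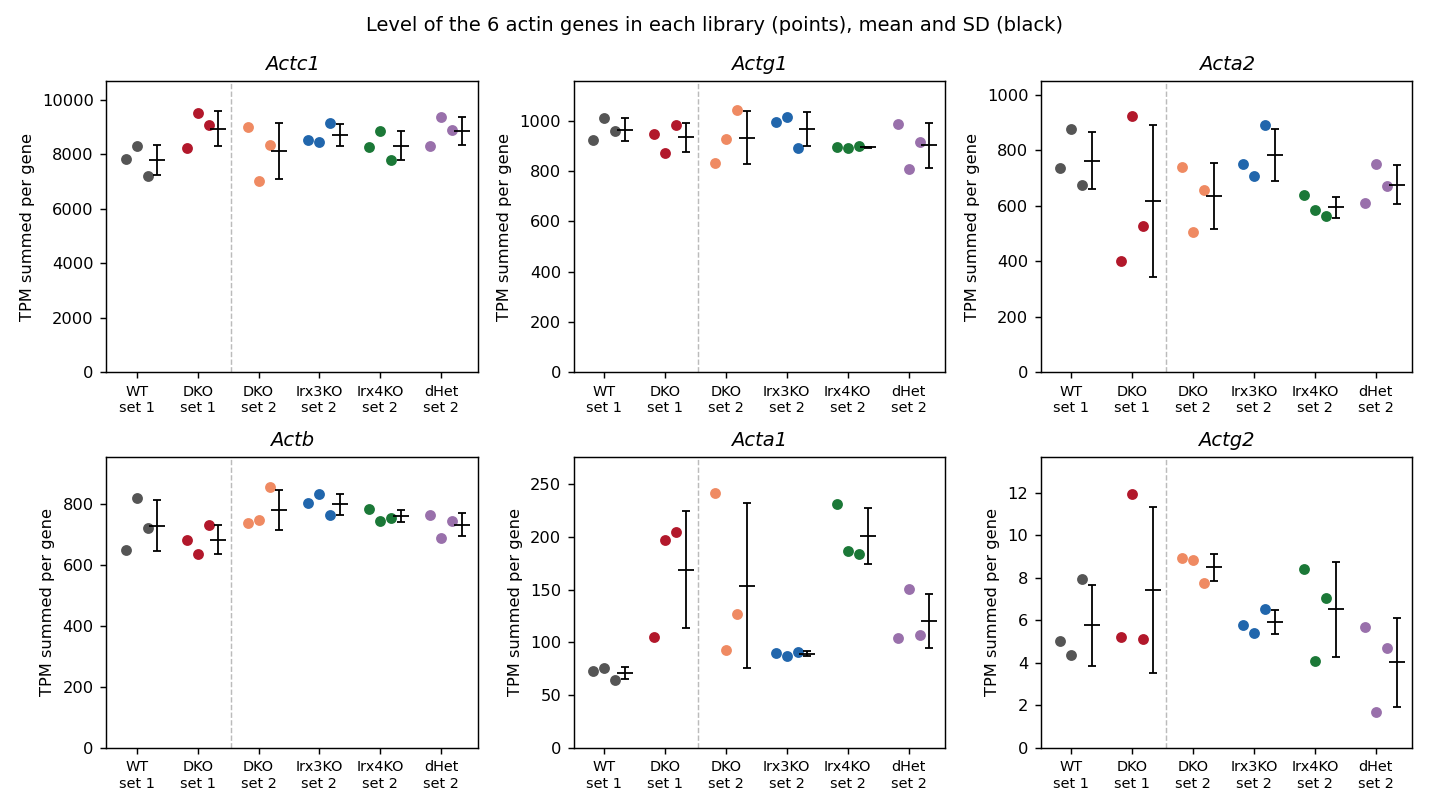
Level of each actin gene (TPM, linear axis from 0) in each library (points) with group mean and SD (black). The dashed line parts set 1 from set 2. Actc1, Actg1 and Actb lie level across groups, while Acta1 runs from 64.5 TPM in WT 3 to 242 TPM in DKO 2.

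None of the 6 genes passed the test in any of the 7 comparisons within a set (edgeR's quasi-likelihood F test, Benjamini-Hochberg adjustment over all genes tested, threshold 0.05). The background was low too. Of all genes, 1.44% passed between DKO and WT in set 1. In set 2 the share was 0.379% between DKO and Irx3KO, 0.0241% between DKO and Irx4KO, 0.0903% between DKO and dHet, 0.289% between Irx3KO and Irx4KO, 0.00602% between Irx3KO and dHet and 0.012% between Irx4KO and dHet. In the joint test over the 4 genotypes of set 2, which 0.307% of genes passed, the adjusted p was 0.39 for Acta1 and 0.7 to 1 for the other 5. At an unadjusted p of 0.05 Acta1 passed in 4 of the 7 comparisons, Actc1 in 1 and Actg2 and Actb in 1 each. The share of all genes past that unadjusted threshold was not counted. The 7 comparisons also reuse the same libraries, so these passes are not independent and stand as a description.

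Acta1, the skeletal form that the fetal heart also makes, showed the widest differences of the 6 between DKO and WT, DKO and Irx3KO, and Irx3KO and Irx4KO. In the other 4 comparisons Actg2, with far fewer counts, differed more. In WT Acta1 stood at 72.7, 75.7 and 64.5 TPM, and in the DKO of set 1 at 105 TPM in DKO 5, 197 TPM in DKO 7 and 205 TPM in DKO 10. All 3 DKO libraries lay above all 3 WT libraries, and DKO 5 lay nearest to them. The group means were 168.9 ± 55.5 TPM and 70.96 ± 5.78 TPM (SD, n = 3 each), a log2 difference of 1.32 ± 0.328 (SE; 95% interval 0.611 to 2.03; edgeR adjusted p = 0.072), or 2.5-fold. Without DKO 5 the log2 difference was 1.565 (adjusted p = 0.026), and with DESeq2 it was 1.33 (adjusted p = 0.0041), so the call depends on the setting. It also passed without DKO 2 (0.016) or DKO 3 (0.035), libraries of the other set. Over the other settings the adjusted p ran from 0.0041 to 0.14, and leaving out 1 library from 0.016 to 0.25.

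In set 2 Acta1 was lowest in Irx3KO and highest in Irx4KO. The Irx3KO libraries stood at 90.3, 86.6 and 91.1 TPM, with very little spread. The Irx4KO libraries stood at 231, 187 and 184 TPM, all above the other groups save DKO 2. The log2 difference of Irx3KO from Irx4KO was -1.22 ± 0.327 (SE; 95% interval -1.92 to -0.51; edgeR adjusted p = 0.2). It passed the threshold with only the compared groups in the fit (adjusted p = 0.0005), with DESeq2 (0.025) and with limma-voom (0.0094), and stood at 0.05 without DKO 2, a library of another group in the fit.

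The DKO of set 2 did not form a tight group for Acta1. DKO 2 held 242 TPM, the highest value of the series, while DKO 3 held 93.0 TPM and DKO 4 held 126 TPM. The dHet libraries stood at 104, 150 and 107 TPM, between Irx3KO and Irx4KO. DKO thus overlapped Irx4KO and dHet, and lay above Irx3KO by only the gap between DKO 3 and the highest Irx3KO library. The log2 difference was 0.86 ± 0.326 for DKO less Irx3KO (edgeR adjusted p = 0.47), -0.36 ± 0.322 for DKO less Irx4KO (0.95), 0.42 ± 0.324 for DKO less dHet (0.73), 0.78 ± 0.324 for Irx4KO less dHet (0.84) and -0.44 ± 0.325 for Irx3KO less dHet (1). Without DKO 2 the DKO less dHet difference was -0.11, on the other side of 0, and DKO less Irx3KO was 0.33.

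A pooled comparison was added after these values were seen. In set 2 the 6 libraries labelled homozygous for Irx4 (DKO and Irx4KO) were set against the 6 others (Irx3KO and dHet). Acta1 was 0.82 ± 0.23 higher on the log2 scale (95% interval 0.322 to 1.316; unadjusted p = 0.00349, edgeR adjusted p = 0.16), while 0.813% of all genes passed this comparison. None of the 6 actins was without overlap between these pooled groups, against 1.88% of all genes. An exact two-sided permutation test of log2 CPM gave p = 0.0216, where 924 assignments allow 0.00216 at the least. DESeq2 and limma-voom each gave an adjusted p of 0.031. Having been chosen on these values, the comparison is a description. Set by Irx3 labels, the same 12 libraries gave -0.40 (edgeR adjusted p = 0.75). The difference between the DKO less WT change of set 1 and the pooled change of set 2 was 0.50 ± 0.396 (edgeR adjusted p = 0.84), a contrast that 0.0482% of genes passed.

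Actc1, the cardiac form and the main actin of the adult heart, was level in set 2 and slightly higher in the DKO of set 1. WT held 7833, 8307 and 7217 TPM, and DKO 5, 7 and 10 held 8239, 9500 and 9090 TPM. In TPM DKO 5 lay under WT 2, while in CPM the groups did not overlap. The log2 difference was 0.28 ± 0.105 (95% interval 0.056 to 0.498; edgeR adjusted p = 0.23). In set 2 the DKO held 9004, 7008 and 8330 TPM. The other groups there ran from 8438 to 9148 TPM in Irx3KO, from 7789 to 8857 TPM in Irx4KO and from 8311 to 9352 TPM in dHet. All groups of set 2 overlapped, and the 6 log2 differences lay between -0.07 and 0.01, with an interval from -0.288 to 0.153 for DKO less dHet. The same label differed as much between sets: DKO of set 1 less DKO of set 2 was 0.26 ± 0.105 (edgeR adjusted p = 0.09; 0.024 without DKO 2).

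Acta2, the smooth muscle alpha form that early cardiomyocytes also make, was scattered within the DKO. WT held 737, 875 and 675 TPM, and DKO 5, 7 and 10 held 401, 925 and 525 TPM. DKO 5 and DKO 10 lay below every WT library and DKO 7 above all. The log2 difference was -0.22 ± 0.256 (edgeR adjusted p = 0.77), and it was 0.01 without DKO 5 and -0.67 without DKO 7. In set 2 Irx3KO held 751, 708 and 890 TPM, and Irx4KO held 637, 583 and 564 TPM. These groups did not overlap, and lay in the opposite order to Acta1. The log2 difference was 0.35 ± 0.256 (edgeR adjusted p = 0.82). The DKO of set 2 held 740, 506 and 657 TPM and dHet held 609, 750 and 670 TPM, both overlapping the other groups.

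Actg2, the smooth muscle gamma form of gut and other visceral muscle, was near the lower limit of these libraries, with 44 to 401 estimated counts each. WT held 5.004, 4.36 and 7.95 TPM, and DKO 5, 7 and 10 held 5.23, 11.9 and 5.10 TPM, overlapping WT (log2 difference 0.45 ± 0.412, edgeR adjusted p = 0.69; -0.095 without DKO 7). In set 2 the DKO held 8.92, 8.82 and 7.76 TPM. They lay above all 3 Irx3KO libraries (5.80, 5.41 and 6.54 TPM) and all 3 dHet libraries (5.67, 1.69 and 4.69 TPM). Irx4KO, at 8.43, 4.07 and 7.06 TPM, overlapped every other group. DKO less dHet was 1.17 ± 0.426 (95% interval 0.263 to 2.082; edgeR adjusted p = 0.39), a difference in which dHet 3 held the lowest Actg2 level of the series.

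Actb and Actg1, the cytoplasmic forms present in every cell, varied little between genotypes. Actb ran from 650 to 819 TPM in WT and from 635 to 731 TPM in the DKO of set 1. In set 2 it ran from 739 to 858 TPM in DKO, from 764 to 832 TPM in Irx3KO, from 746 to 784 TPM in Irx4KO and from 690 to 764 TPM in dHet. The largest of its 7 log2 differences was 0.19 ± 0.0709, for DKO less dHet (edgeR adjusted p = 0.39), where the groups did not overlap in CPM and did in TPM. Actg1 ran from 924 to 1013 TPM in WT, from 873 to 986 TPM in the DKO of set 1 and from 808 to 1042 TPM in set 2. Its 7 log2 differences lay between 0.02 and 0.10, with edgeR adjusted p of 0.7 or more. In DKO less WT the 95% interval was -0.167 to 0.132 for Actb and -0.119 to 0.175 for Actg1, so a change of the size seen in Acta1 lies outside both.

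**Figure D2:**
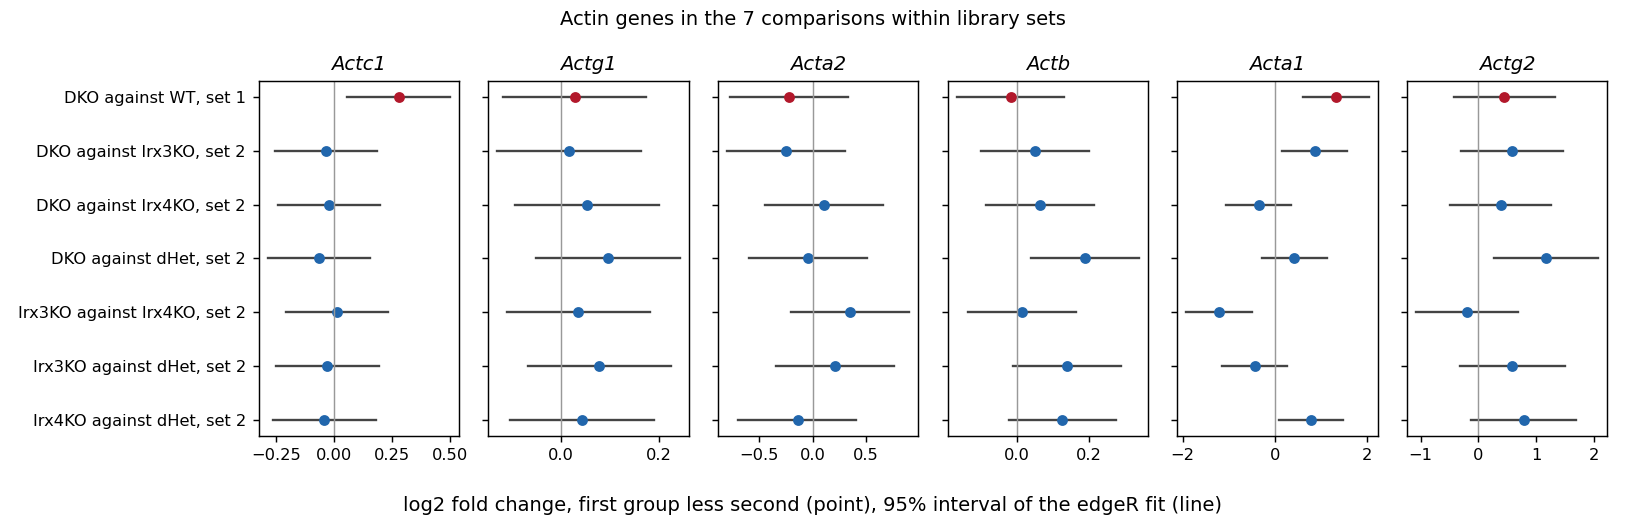
Log2 fold change (first group less second; point) and 95% interval of the edgeR fit (line) for each actin gene in the 7 comparisons within a set, red for set 1 and blue for set 2. Each panel has its own horizontal scale. For Acta1 the intervals of DKO less WT, DKO less Irx3KO, Irx3KO less Irx4KO and Irx4KO less dHet leave out 0, yet none passed after adjustment.

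Groups without overlap were common among all genes. In CPM 2 of the 6 did not overlap between DKO and WT (Acta1 and Actc1, both higher), against 15.0% of all genes. Between DKO and Irx3KO it was 2 (Acta1 and Actg2, higher; 17.4% of all genes), between DKO and dHet 2 (Actg2 and Actb, higher; 16.0%), and between DKO and Irx4KO 0 (15.0%). Irx3KO and Irx4KO were apart in 2 (Acta1 lower and Acta2 higher in Irx3KO; 22.7%), Irx3KO and dHet in 2 (Acta1 lower and Actb higher; 11.6%) and Irx4KO and dHet in 2 (Acta1 and Actb higher; 14.1%).

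The share of each form in the summed actin level takes out a factor common to all 6. Actc1 makes up most of the sum, so where Actc1 is higher the shares of the other forms are lower. Actc1 made up 75.45% ± 1.03 of the actin TPM in WT and 78.79% ± 0.57 in the DKO of set 1, without overlap. Acta1 made up 0.687% ± 0.0216 and 1.469% ± 0.404, also without overlap. The Acta2 share was 7.365% ± 0.462 and 5.345% ± 2.0, and the cytoplasmic forms together held 16.44% ± 1.01 and 14.33% ± 1.7 (SD, n = 3 each). The differences were 3.34 percentage points for Actc1 and 0.782 for Acta1 (exact permutation p = 0.1 each, two-sided, the smallest that 3 against 3 allows), and -2.02 for Acta2 (exact p = 0.3). For Actg2, Actb and Actg1 they were 0.0074, -1.02 and -1.09 percentage points (exact p = 0.6, 0.2 and 0.2). The levels of Actb and Actg1 themselves differed by only -0.017 and 0.028 on the log2 scale.

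In set 2 the mean shares of Acta1 and Acta2 ran in opposite orders over the genotypes, with DKO and dHet close together in Acta2. The Acta1 share was 0.787% ± 0.0187 in Irx3KO, 1.063% ± 0.188 in dHet, 1.414% ± 0.593 in DKO and 1.865% ± 0.245 in Irx4KO. The Acta2 share was 6.885% ± 0.598 in Irx3KO, 5.98% ± 0.37 in dHet, 5.936% ± 0.477 in DKO and 5.531% ± 0.358 in Irx4KO. An exact permutation test of F over the 4 genotypes (369600 assignments) gave p = 0.0385 for Acta1, 0.0301 for Acta2, 0.05 for Actg2, 0.23 for Actc1, 0.42 for Actb and 0.786 for Actg1. These 6 values carry no adjustment for the 6 forms tested. Leaving out 1 library, p ran from 0.00214 to 0.0688 for Acta1, from 0.0201 to 0.134 for Acta2 and from 0.00409 to 0.15 for Actg2, so each lies near the threshold. With permutation within replicate numbers 2 and 4 (the replicate block) the exact p was 0.0417 for Acta1, 0.25 for Acta2 and 0.167 for Actg2. Irx3KO and Irx4KO differed by 1.08 percentage points in Acta1, lower in Irx3KO, and by 1.35 in Acta2, higher in Irx3KO (exact p = 0.1 each, the smallest possible).

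The balance of the striated forms was even within WT and within Irx3KO. Acta1 made up 0.919%, 0.903% and 0.886% of Acta1 plus Actc1 in WT, and 1.26%, 2.03% and 2.2% in DKO 5, 7 and 10. In set 2 it made up 1.05%, 1.02% and 0.986% in Irx3KO, 1.24%, 1.58% and 1.18% in dHet, 2.62%, 1.31% and 1.49% in DKO, and 2.72%, 2.06% and 2.31% in Irx4KO. Within its set, every DKO library lay above every WT or Irx3KO library, and all Irx4KO libraries lay above all dHet libraries. This ratio and the next were added after the levels were seen. The exact permutation p over the 4 genotypes of set 2 was 0.0312, and for the pooled Irx4 labels the difference was 0.91 percentage points (exact p = 0.00866). The pooled grouping was also chosen on these values, so both p-values are descriptions and not tests.

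Acta2 stood well above Acta1 in all libraries, by a factor that varied with the label. The ratio in TPM was 10.1, 11.6 and 10.5 in WT and 3.82, 4.7 and 2.56 in the DKO of set 1. In set 2 it was 8.32, 8.18 and 9.77 in Irx3KO, 5.83, 4.99 and 6.29 in dHet, 3.06, 5.44 and 5.2 in DKO and 2.76, 3.12 and 3.06 in Irx4KO. In set 1 the WT libraries lay above the DKO libraries. Within set 2 the Irx3KO libraries lay highest and the Irx4KO libraries, with DKO 2, lowest. The smooth muscle and skeletal forms did not follow each other: across the 18 libraries, less the mean of each set, Pearson's r of log2 CPM was -0.02 for Acta1 with Acta2.

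**Figure D3:**
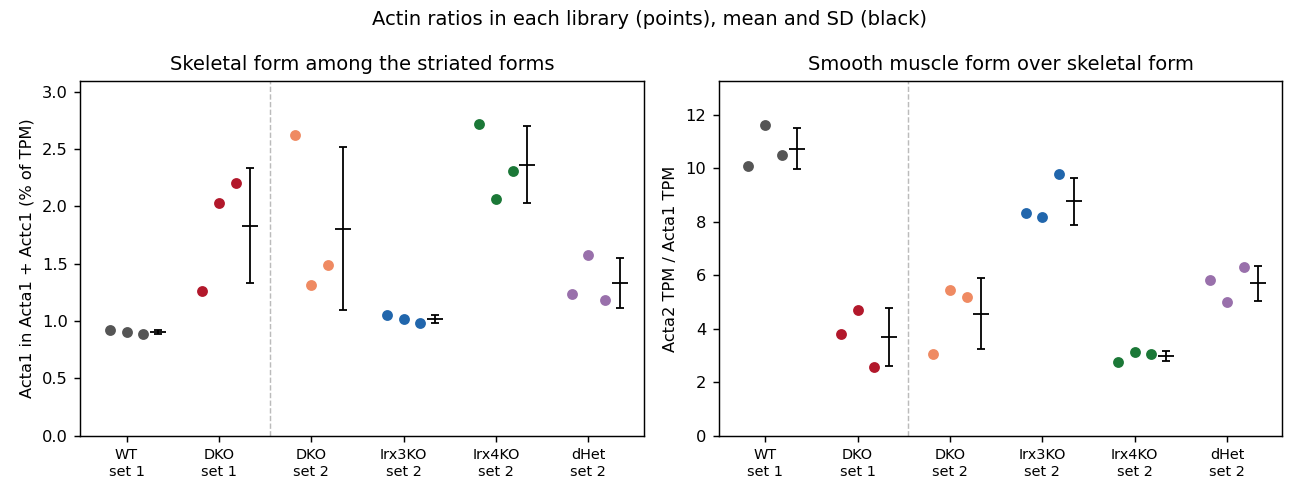
Left, Acta1 as a percent of Acta1 plus Actc1 (TPM); right, Acta2 TPM over Acta1 TPM, in each library (points) with group mean and SD (black); both axes start at 0 and the dashed line parts the sets. On the left, in set 1, WT lie between 0.886% and 0.919% and DKO between 1.26% and 2.2%. In set 2 Irx3KO lie between 0.986% and 1.05% and Irx4KO between 2.06% and 2.72%. On the right the order of these groups is turned around within each set.

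Other pairs of forms went together more closely. With the set mean taken out, r over the 18 libraries was 0.746 for Actb with Actg1, 0.644 for Acta1 with Actc1 and 0.422 for Actc1 with Acta2. Actb and Actg1 are also the forms that share most sequence with other genes. Cytoplasmic and striated forms were hardly related (r of -0.24 to 0.00 between Actb or Actg1 and Acta1 or Actc1). These values describe libraries that share 2 processing sets, with no test.

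By the same measure, over 10898 genes with at least 5 CPM on average, the genes most like Acta1 were Tmem123 (r = 0.919), Rab18, a small GTPase of membrane traffic (0.895), and Dnajb11, a chaperone of the endoplasmic reticulum (0.893). For Actc1 they were Rab7, a GTPase of late endosomes (0.906), Pdlim5, a Z-disc protein that binds alpha-actinin (0.901), and Fastkd5 (0.898). For Acta2 they were Pbk, a mitotic kinase (0.9), Haus8, a subunit of the augmin complex of the spindle (0.892), and Oxnad1 (0.891). Actg2 was most like Cthrc1 (0.848), Id4 (0.786) and Man1b1 (0.775). Actb was most like Prkcsh (0.861), Pnp (0.852) and Cst3 (0.852), and Actg1 was most like Shisa2 (0.923), Ncstn (0.923) and Ackr3 (0.882). No form had another actin among its 3 most similar genes.

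The partners of actin in the thin filament and Z-disc come next. The thin filament and Z-disc list holds 20 genes, all tested: tropomyosins, troponins, tropomodulins, leiomodins and nebulin relatives among them. None passed in any of the 7 comparisons. Between DKO and WT 13 of the 20 log2 differences were above 0, with a median of 0.13 against 0.01 over all genes. The smallest p-values belonged to Tpm1, which winds along the filament (0.31 ± 0.0942, edgeR adjusted p = 0.12), Nebl, a Z-disc nebulin relative (0.33 ± 0.1, adjusted p = 0.12), and Tmod1, which caps the pointed end (0.17 ± 0.0618, adjusted p = 0.22).

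Cap2, a protein that recycles actin monomers and is known to be made in the heart, was the actin regulator with the firmest difference. It stood at 303, 282 and 299 CPM in WT, and at 368, 376 and 378 CPM in DKO 5, 7 and 10. In set 2 it stood at 372, 380 and 362 CPM in DKO, 362, 384 and 365 CPM in Irx4KO, 296, 297 and 317 CPM in Irx3KO and 300, 337 and 315 CPM in dHet. Within each set the libraries labelled homozygous for Irx4 lay above all others in Cap2. Of the genes taken up below, Gata6 was split the same way, and Fhod3 the opposite way. Groups so split did not overlap, in either direction, in 15.0% of all genes in set 1 and 1.88% in set 2. The split of set 2 was chosen after the Acta1 values were seen. Of the 22 genes of monomer and filament turnover, Cap2 was the only one to pass in the 7 comparisons of genotypes. Cap2 was 1 of 22 in DKO against WT (1.44% of all genes), DKO against Irx3KO (0.379%) and Irx3KO against Irx4KO (0.289%). It rose between WT and DKO by 0.34 ± 0.0551 on the log2 scale (edgeR adjusted p = 0.0047), and was higher in DKO than in Irx3KO (0.29, adjusted p = 0.026) and lower in Irx3KO than in Irx4KO (-0.29, adjusted p = 0.034). DKO and Irx4KO differed by 0.00.

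The settings did not treat these Cap2 calls alike. The DKO and WT call held without any 1 library (adjusted p 0.0034 to 0.022) and was lost with only WT and the DKO of set 1 in the fit (adjusted p = 0.22). The call against Irx3KO was lost without any 1 of the 6 libraries compared (adjusted p 0.068 to 0.16), and that between Irx3KO and Irx4KO likewise (0.067 to 0.21). Both were lost with the replicate block (0.15 and 0.18). In the pooled Irx4 labels 2 of the 22 passed, against 0.813% of all genes. Cap2 was 0.26 ± 0.039 higher (edgeR adjusted p = 0.0036). Tmsb10, which binds actin monomers, also passed there (0.41 higher, adjusted p = 0.027), a call lost without dHet 2, DKO 3, DKO 4, Irx4KO 3, Irx4KO 4 or any 1 Irx3KO library (adjusted p up to 0.075). Dstn, which severs filaments, and Capzb, a subunit of the barbed-end cap, were 0.32 and 0.23 higher in DKO than in WT without passing (adjusted p = 0.072 and 0.074).

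**Figure D4:**
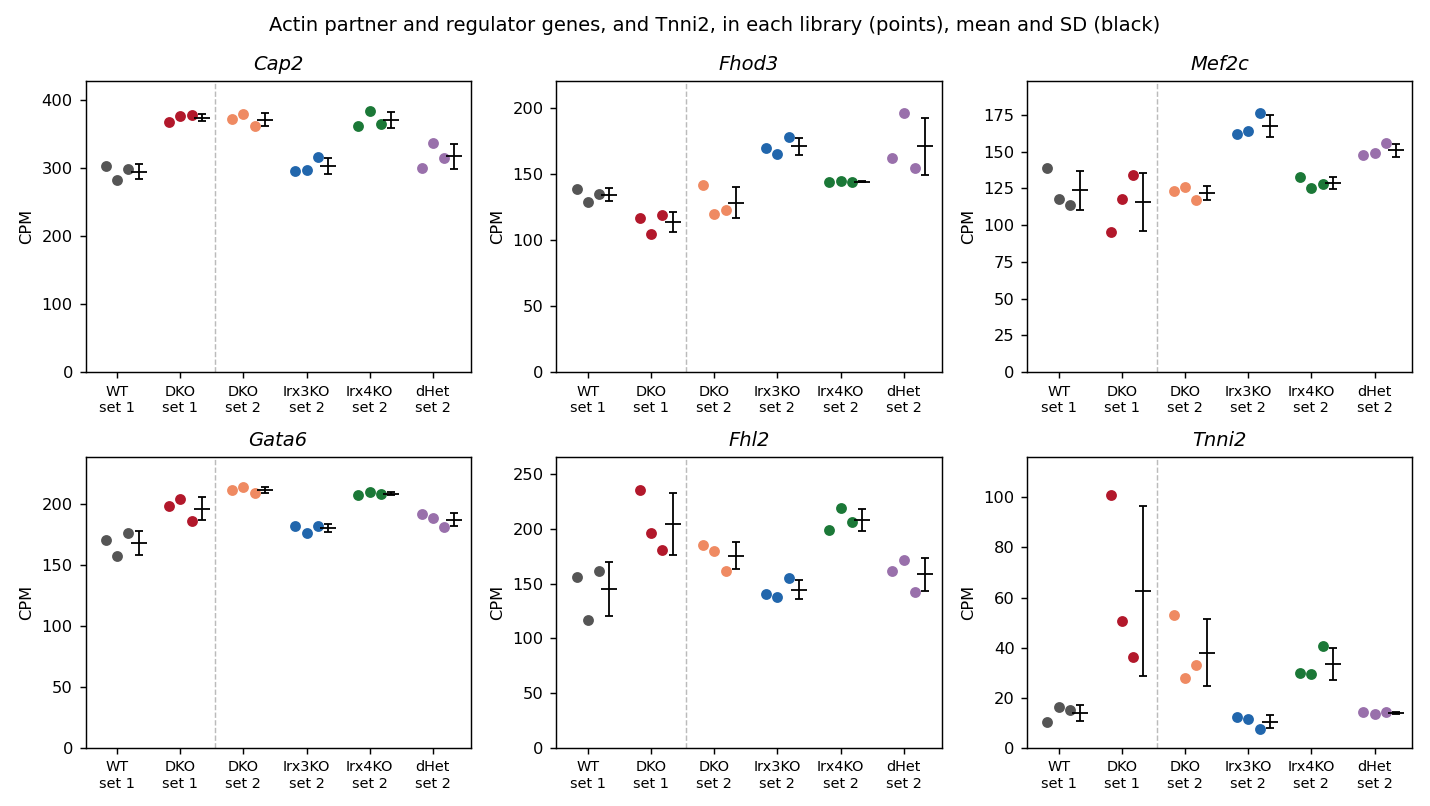
Level (CPM, linear axis from 0) of 5 genes that act on actin or its transcription and passed a test within a set, and of Tnni2, a fast skeletal troponin, in each library (points) with group mean and SD (black). For Cap2 the DKO of set 1 lie between 368 and 378 CPM and WT between 282 and 303 CPM. In set 2 DKO and Irx4KO lie between 362 and 384 CPM and the others between 296 and 337 CPM.

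Among 19 genes of actin nucleation, Fhod3, the formin that assembles cardiac sarcomeres, was the only one called in the 7 comparisons of genotypes (1 of 19 in DKO against Irx3KO, where 0.379% of all genes passed). It stood at 142, 120 and 123 CPM in the DKO of set 2 and at 170, 165 and 178 CPM in Irx3KO, without overlap. It fell by 0.41 ± 0.0814 on the log2 scale (edgeR adjusted p = 0.034), a call that was lost without any 1 of DKO 3, DKO 4, the Irx3KO and the Irx4KO libraries (adjusted p up to 0.18). The call was also lost with embryo sex as a term (0.084), with the length trend removed (0.098) and with the replicate block (0.17). With the pooled Irx4 labels, a split chosen after the Acta1 values were seen, Fhod3 was 0.33 lower (edgeR adjusted p = 0.0095). It was 1 of 19 called there, against 0.813% of all genes. That call held without any 1 library (0.0061 to 0.037) and was lost with the replicate block (0.065). DKO less WT was -0.24 (adjusted p = 0.17), with Daam1 at -0.27 and Wasf2 at -0.15 next (adjusted p = 0.24 each). None of 10 genes of protein folding passed in the 7 comparisons, the subunits of the chaperonin that folds actin together with Pdcl3 and Tbca, a tubulin cofactor. Their 10 log2 differences between DKO and WT were all above 0, with a median of 0.11 against 0.01 over all genes. Between DKO and WT Tcp1 had the smallest p (0.16, edgeR adjusted p = 0.36), and Cct7 (0.14, adjusted p = 0.4) and Tbca (0.15, adjusted p = 0.47) came next. All 10 were also higher in the DKO of set 1 than in the DKO of set 2, which share a label. The median there was 0.21, and 5 of the 10 passed, against 18.8% of all genes.

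Of 17 names for Srf, its cofactors and other regulators of muscle actin genes, 15 were tested. In DKO against WT 2 passed, against 1.44% of all genes. Fhl2, a LIM protein that binds Srf, was 0.50 ± 0.115 higher on the log2 scale (204.4 ± 28.5 CPM against 144.7 ± 24.3 CPM; edgeR adjusted p = 0.037). Gata6, a cardiac transcription factor, was 0.225 ± 0.0534 higher (196.1 ± 9.61 CPM against 167.7 ± 9.83 CPM; edgeR adjusted p = 0.044). Nkx2-5, a homeodomain factor of the heart, was 0.42 higher without passing (adjusted p = 0.051). Mef2c, a transcription factor of muscle genes, was 0.46 ± 0.0958 lower in DKO than in Irx3KO (122.0 ± 4.87 CPM against 167.5 ± 7.38 CPM; edgeR adjusted p = 0.047). It was 1 of 15 called there, against 0.379% of all genes. These 3 calls were fragile. The Gata6 call held only without dHet 3, DKO 5 or DKO 10, and was lost without any other library (adjusted p up to 0.15). The Mef2c call held only without WT 1, DKO 5 or DKO 10 (adjusted p otherwise up to 0.24). The Fhl2 call was lost without WT 1, WT 2, DKO 5, DKO 7, dHet 2, Irx3KO 1, Irx3KO 2, Irx4KO 2 or Irx4KO 4 (adjusted p up to 0.11). With only WT and the DKO of set 1 in the fit, Gata6 and Fhl2 did not pass either (0.54 and 0.35). With the pooled Irx4 labels, chosen after the Acta1 values were seen, 2 of the 15 passed, against 0.813% of all genes. Gata6 was 0.19 higher and Mef2c 0.35 lower (edgeR adjusted p = 0.021 each). Leaving out 1 library raised the adjusted p up to 0.073 for Gata6 and 0.07 for Mef2c.

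Other cell types could bring their own actins, so their markers were measured in the same libraries. The tissue carried cardiomyocyte markers at a high level (Myh7 at least 5540 CPM and Myl2 at least 3680 CPM). The summed skeletal muscle markers, 15 genes of which 11 were tested, moved with Acta1: 27.37 to 33.32 CPM in WT and 54.54 to 121.8 CPM in the DKO of set 1. In set 2 they ran from 43.99 to 66.62 CPM in DKO, 43.73 to 55.63 CPM in Irx4KO, 23.92 to 26.89 CPM in Irx3KO and 25.6 to 28.09 CPM in dHet. Nearly all of that difference was Tnni2, a fast skeletal troponin, at 10.3, 16.4 and 15 CPM in WT and 101, 50.7 and 36.3 CPM in DKO 5, 7 and 10 (log2 difference 2.17 ± 0.356, edgeR adjusted p = 0.011). Tnnt3 also passed there (0.88, adjusted p = 0.018), so 2 of 11 did, against 1.44% of all genes. With only WT and the DKO of set 1 in the fit neither passed (adjusted p = 0.24 each), and Tnnt3 did not with genotype as the only term (0.34). Without WT 1 neither passed (adjusted p = 0.056 and 0.1), and Tnnt3 did not without WT 3 (0.077). DKO 5, the highest for Tnni2, was the lowest of its group for Acta1. Of the skeletal list, Myod1, Myf5 and Pax7 held at most 2 estimated counts in any library. Other members reached more: 24.3 counts for Pax3, 53 for Myog, 188 for Myh8, 223 for Mylpf and 238 for Chrng. With the set mean taken out, r between Acta1 and the summed skeletal markers was 0.682 over 18 libraries.

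Smooth muscle markers (14 genes, all tested) summed to 2015 to 2153 CPM in WT and 2265 to 2573 CPM in the DKO of set 1, though only 4 of the 14 log2 differences were above 0, with a median of -0.12. Cnn1 and Des were 0.36 and 0.16 higher without passing, and Mylk and Notch3 at -0.55 and -0.41. Myl9 was the only one called (1 of 14, against 1.44% of all genes; 0.51 ± 0.112 higher, edgeR adjusted p = 0.029). The call was lost without DKO 7 or any 1 WT library (adjusted p up to 0.14). It was also lost with only WT and the DKO of set 1 in the fit (0.2) and with genotype as the only term (0.38). Embryo sex as a term (0.063) or removal of the length trend (0.051) lost it too. In set 2 the summed smooth muscle markers ran from 2114 to 2447 CPM in DKO, 2249 to 2343 CPM in Irx4KO, 1998 to 2240 CPM in Irx3KO and 2067 to 2232 CPM in dHet. Myh11, the defining myosin of mature smooth muscle, did not pass 2.44 CPM in any library, while Tagln stood at 31.5 to 107 CPM. Myl9 (612.6 CPM in WT and 870.5 CPM in the DKO of set 1) and Des (680.4 and 758.2 CPM) made up most of the sum of the smooth muscle list. That sum, which mainly reflects these genes, was related to Acta1 (r = 0.785) and not to Acta2 itself (r = 0.064). Atrial markers (9 genes) summed to 1819 to 2317 CPM in WT and 2903 to 3032 CPM in the DKO of set 1, where Myl7, Myl4 and Stard10 were called higher (edgeR adjusted p = 0.0091, 0.016 and 0.004; 3 of 9, against 1.44% of all genes). In set 2 their mean sums were 2318 CPM in DKO, 2008 CPM in Irx4KO, 1892 CPM in Irx3KO and 1738 CPM in dHet. None of the 9 passed between any 2 genotypes of set 2, and Stard10 passed with the pooled Irx4 labels. Myl7, Myl4 and Stard10 were also called higher in the DKO of set 1 than in the DKO of set 2, which share a label. These atrial calls were not tried under other settings. The part of these cell types in the actin levels was not tested.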

How the data were processed

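Ventricle RNA of RNA integrity number above 8.5 was made into directional polyA libraries, per the labels' protocols. Each table the authors deposited lists estimated counts and TPM per transcript, in the columns of kallisto per the file headers. Kallisto 0.42.2 and mm9 are named in the submitters' processing notes. The release of the transcripts and the strandedness option were not found there. Deposited TPM values are scaled for length and library total, and were summed per gene for levels and shares.

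Of 88943 transcripts, 78030 (87.73%) were tied to a gene by identifier in GENCODE M21. The rest held 6.42% to 6.77% of a library's counts and entered no test. Estimated counts were summed per gene and rounded. One edgeR 4.0.16 fit (R 4.3.3; TMM, filterByExpr, robust quasi-likelihood F test, 6 group means for genotype within set, 12 residual degrees of freedom, prior count 0.125, threshold 0.05) covered 16607 genes. The standard error is the log2 difference over the square root of F. CPM values carry TMM factors. Shares were tested by exact permutation of libraries. Within groups no pair of libraries matched within counting noise (smallest chi-square per gene 6.13). The fit recovered known changes in simulated counts.

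Alternatives were other size factors, DESeq2 1.42.0, limma-voom (limma 3.58.1), 2 other filters, counts rebuilt from TPM, other sets of libraries or terms in the fit, a length trend, a replicate block and leaving out each library. Named genes are the 6 actins, from each actin pathway list the genes called within a set or else up to 3 with the smallest p between DKO and WT, and the 3 genes most like each actin. The members and lists were chosen with earlier results of these data known. Of the other marker lists, none of the 12 fibroblast, 8 endothelial or 8 erythroid markers passed between DKO and WT, where 1.44% of all genes did. Lyz2 fell, 1 of 8 macrophage markers (14.08 ± 4.93 CPM in DKO against a scattered 39.57 ± 19.6 CPM in WT; edgeR adjusted p = 0.022). Among 10 cardiomyocyte markers only Myh6 rose (edgeR adjusted p = 0.012) and only Pln fell (0.005) past the threshold. The Lyz2, Myh6 and Pln calls were not tried under other settings.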

Additional observations from a re-analysis of the deposited data

How the results depend on the processing

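The number of actins past the threshold stayed at 0 except as follows. It was 1 (Acta1) between DKO and WT with DESeq2, between Irx3KO and Irx4KO with only the compared groups, DESeq2 or limma-voom, and for the pooled Irx4 labels with DESeq2 or limma-voom. Leaving out 1 library gave 0 to 1 between DKO and WT (Acta1 without DKO 2, DKO 3 or DKO 5, adjusted p = 0.016, 0.035 and 0.026), 0 to 1 between Irx3KO and Irx4KO and 0 to 1 between the DKO of the 2 sets (Actc1 without DKO 2, Actg1 without DKO 4), and 0 elsewhere. With DESeq2, 595 genes passed between DKO and WT against 239 with edgeR.

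In set 2 the Actg2 share lost the threshold in estimated counts (exact permutation p = 0.0501) and within the 4 muscle forms (exact p = 0.0519). Leaving out 1 library gave exact p from 0.00214 to 0.0688 for Acta1, 0.0201 to 0.134 for Acta2 and 0.00409 to 0.15 for Actg2, and differences in the Actg2 share of set 1 from -0.00962 to 0.0202 percentage points.

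No paired analysis was possible because WT 1 to 3 and DKO 5, 7 and 10 share no replicate numbers in set 1. In set 2 same-numbered libraries did not deviate together (r above 0.1 in 5 of 15 pairs, 4 of 11 libraries most like their own number). With the replicate block no actin passed, and the exact permutation test of the shares gave p = 0.25 for Acta2 and 0.167 for Actg2.

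The sign of 20 log2 differences near 0 turned, none of them past the threshold. With genotype as the only term Actg1 between DKO and WT was -0.05 (-0.052). Actc1 was 0.101 between DKO and Irx3KO, 0.113 between DKO and Irx4KO, 0.07 between DKO and dHet and 0.029 for the pooled labels, and Acta2 between DKO and dHet was 0.003. With limma-voom Actb between DKO and WT was 0.006, Acta2 between DKO and dHet was 0.012, and Actc1 was 0.01, 0.005 and -0.005 for DKO less Irx3KO, DKO less Irx4KO and Irx3KO less Irx4KO. With embryo sex as a term Actc1 was 0.009 and 0.024 for DKO less Irx3KO and DKO less Irx4KO, Actg1 was -0.011 for DKO less Irx3KO, and Acta2 and Actg2 were -0.003 and 0.141 between the DKO sets. Actg1 for DKO less Irx3KO was -0.007 with counts rebuilt from TPM and -0.003 with the length trend removed. With the replicate block Irx3KO less Irx4KO was -0.012 for Actb and -0.01 for Actg1.

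Leaving out 1 library turned the sign of further log2 differences, whose values then ran as follows. For DKO less WT they ran from -0.668 to 0.009 in Acta2, -0.095 to 0.728 in Actg2 and -0.075 to 0.07 in Actb. For DKO less Irx3KO they ran from -0.152 to 0.075 in Actc1, -0.013 to 0.098 in Actb and -0.056 to 0.059 in Actg1. For DKO less Irx4KO they ran from -0.139 to 0.087 in Actc1, -0.056 to 0.256 in Acta2, 0.00 to 0.111 in Actb and -0.02 to 0.097 in Actg1. For DKO less dHet they ran from -0.11 to 0.695 in Acta1, -0.183 to 0.044 in Actc1 and -0.198 to 0.115 in Acta2. For Irx3KO less Irx4KO they ran from -0.048 to 0.065 in Actc1, -0.435 to 0.001 in Actg2 and -0.008 to 0.029 in Actb. Against dHet, Actc1 ran from -0.099 to 0.036 in Irx3KO and -0.112 to 0.023 in Irx4KO, and Actg1 from -0.022 to 0.088 in Irx4KO. Between the DKO sets the ranges were -0.039 to 0.76 in Acta1, -0.366 to 0.31 in Acta2, -0.598 to 0.188 in Actg2 and -0.074 to 0.037 in Actb. For the pooled labels they were -0.098 to 0.016 in Actc1 and -0.006 to 0.052 in Actg1. The cause was not tested.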
